A study of Homo sapiens with 14 samples.

Results

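Gene expression was compared between the 2 libraries labelled siBANF1 and the ICM libraries 1 and 2, taken by title and paired by replicate number. These are 4 of the 14 libraries of the series. All were made from IMR90, human lung fibroblasts. The labels name a pair of IMR90 isolates and do not tie a library to either. The ICM libraries carry the genotype label WT and were treated with 10 µM inflachromene (ICM) for up to 6 days to induce senescence. The siBANF1 libraries had the same treatment and are labelled as a siRNA knockdown of BANF1, so both groups are ICM-treated cells and no untreated cell enters the comparison. Neither the siRNA sequences nor a control siRNA for the ICM libraries is given in the sources used here. Nothing in the labels says that the libraries of a group were separate cultures, so the p-values below cannot be read as measuring a spread between cultures. The paired test had 1 residual degree of freedom against a median prior of 8.32, so each gene's spread came largely from the other genes. Tests with all 14 libraries drew on other groups as well. Pair 1 is siBANF1 1 with ICM 1, and pair 2 is siBANF1 2 with ICM 2. The names of the deposited files go against the titles. The files of the libraries titled siBANF1 carry the name siSRRM2, and those of the libraries titled siSRRM2 carry the name siBANF1. The titles are used throughout, and every direction below is that of "the libraries labelled siBANF1".

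BANF1 encodes barrier-to-autointegration factor, a small protein that binds double-stranded DNA, lamin A and the LEM-domain proteins of the inner nuclear membrane. It draws the nuclear membrane around the chromosomes after mitosis and limits the access of the DNA sensor cGAS to the cell's own chromatin. SRRM2 encodes a large serine- and arginine-rich protein that, with SON, forms the scaffold of nuclear speckles, the nuclear bodies where splicing factors gather. Inflachromene binds the chromatin proteins HMGB1 and HMGB2. Senescent fibroblasts stop dividing and can release a mixture of cytokines, proteases and growth factors, known as the senescence-associated secretory phenotype.

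The 2 genes that the label and the file name point to share little sequence. SRRM2 lies at chr16:2752638-2771412 and BANF1 at chr11:66002503-66004149 in GRCh38.p14 (RefSeq). In GENCODE v29, the longest run of bases shared by any of 5 protein-coding BANF1 transcripts and any of 9 of SRRM2, read on the sense strand, was 14 bases. Within the BANF1 coding sequence the longest run shared with the longest SRRM2 transcript (9353 bases) was 10 bases, found in 3 places. The coding sequence of BANF1 is shown because it is the message that the label names, with those 3 runs in capitals. It has 270 bases from ATG to TGA in 2 coding exons at chr11:66003251-66003769, plus strand.
BANF1: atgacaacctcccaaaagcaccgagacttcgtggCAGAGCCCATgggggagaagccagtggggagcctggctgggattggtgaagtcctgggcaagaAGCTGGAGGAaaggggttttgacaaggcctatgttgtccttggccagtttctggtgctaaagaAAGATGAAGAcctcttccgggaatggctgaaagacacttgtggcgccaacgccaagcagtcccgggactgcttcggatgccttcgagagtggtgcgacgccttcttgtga

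SRRM2, not BANF1, was low in the libraries labelled siBANF1. SRRM2 had 238 CPM in ICM 1 and 59.0 in siBANF1 1, and 112 CPM in ICM 2 and 17.01 in siBANF1 2. CPM is a gene's count scaled to 1000000 gene counts of its library. Both siBANF1 libraries lay below both ICM libraries, at 24.8% of the ICM level in pair 1 and 15.1% in pair 2. SRRM2 fell by 2.35 on the log2 scale (SE 0.23). Its Benjamini-Hochberg adjusted p was 0.0285 in the quasi-likelihood F-test of edgeR, with the pair as a block. A gene was called at an adjusted p under 0.05 with the same direction in both pairs. SRRM2 was the 1 gene of 11366 protein-coding genes tested that was called lower (0.0088%), and 0 genes (0.0%) were called higher. The next smallest adjusted p was 0.153. The edgeR call for SRRM2 was lost under relative log expression scaling (adjusted p = 0.207), total-count scaling (0.716) and a minimum mean of 10 CPM (0.287), while its log2 fold change stayed between -2.37 and -2.32 in those 3 settings. The call was also lost without the pair term, in the 4 libraries and in all 14. Fits that left out a library used the rest of the 14 without the pair term, so they are no separate check of the call. Their log2 fold changes ran from -3.50 without siBANF1 1 to -1.34 without ICM 1. The value was -1.98 with pair 1 alone and -2.68 with pair 2 alone, and both fits took their spread from the other groups. SRRM2 shares exonic bases with ELOB and SRRM2-AS1 on the other strand, and whether reads were counted by strand is not given in the sources used here.

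BANF1, the gene that the label names, had 13.5 CPM in ICM 1 and 16.96 in siBANF1 1, and 32.7 CPM in ICM 2 and 36.7 in siBANF1 2. It was slightly higher in the siBANF1 library of each pair, and the levels of the 2 groups overlapped. Its log2 fold change was 0.27 (SE 0.22), with an edgeR adjusted p of 0.753. BANF1 shares exonic bases with EIF1AD on the other strand. Outside these 4 libraries, the libraries labelled siSRRM2 held 33.3 and 34.2 CPM of BANF1, and the 8 WT, siHMGB2, siCTCF and other ICM libraries held between 63.2 and 118 CPM. SRRM2 lay at 76.1 and 76.4 CPM in the siSRRM2-labelled libraries, 368 to 476 CPM in WT and siHMGB2, and 657 to 846 CPM in siCTCF and ICM 3 and 4. The libraries labelled siBANF1 were thus the 2 lowest of 14 for SRRM2, among libraries that differ in make-up (given below). BANF1 in siBANF1 1 was above ICM 1 and below each of the other 12 libraries.

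**Figure D1:**
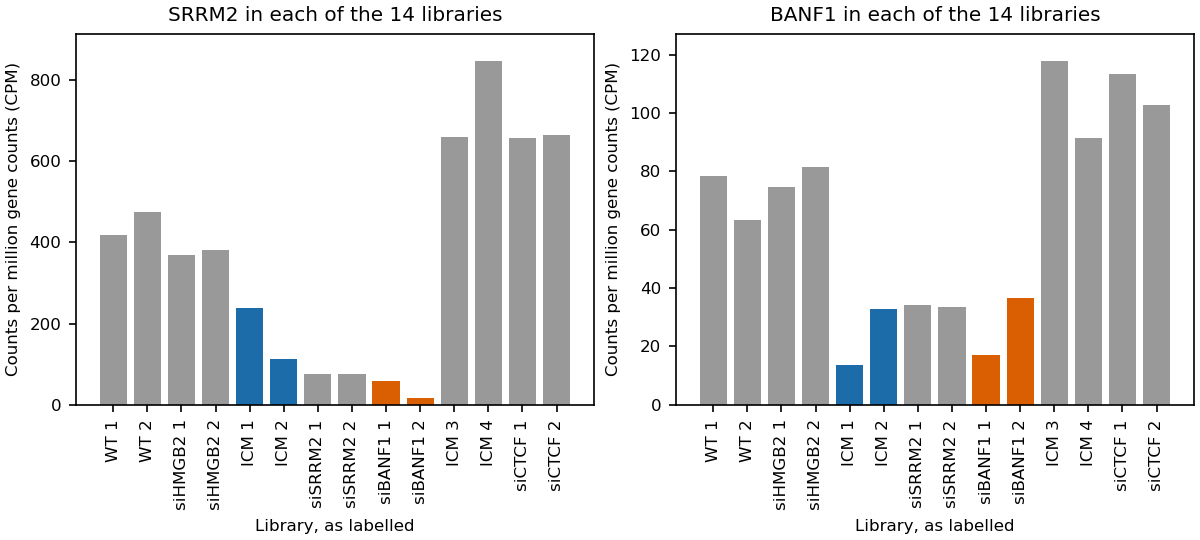
SRRM2 (left) and BANF1 (right) in CPM in each of the 14 libraries, one bar per library, with ICM 1 and 2 in blue, siBANF1 1 and 2 in orange and all others in grey. SRRM2 is lowest in the 2 orange bars, at 59.0 and 17.01 CPM, while BANF1 is a little higher in each orange bar than in the blue bar of the same number.

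Gene counts ranged from 39435430 to 58257456 in the 4 libraries and from 22336161 to 58257456 in all 14. Reads given to no gene made up 26.5% to 41.8% of the 4 libraries. Reads in no annotated feature were 16.3% in ICM 1 and 18.4% in siBANF1 1, against 4.73% in ICM 2 and 5.16% in siBANF1 2. Mitochondrial messages took 0.454% and 0.754% of the gene counts in ICM 1 and siBANF1 1, and 0.0677% and 0.0685% in ICM 2 and siBANF1 2. Fibroblast markers, led by COL1A2, COL3A1 and VIM, summed to 13308 CPM in ICM 1, 9117 in siBANF1 1, 4543 in ICM 2 and 4967 in siBANF1 2, and 13 of the 14 were tested. Some markers of other cell types had 0 counts in all 4. These were 6 of 13 epithelial genes (AGER, KRT5, NKX2-1, SCGB1A1, SFTPB and SFTPC) and 1 of 9 endothelial genes (CDH5). They were also 4 of 11 immune genes (CD3E, MS4A1, NKG7 and TYROBP) and 1 of 9 smooth muscle and pericyte genes (MYH11). Under 1 CPM in all 4 were 11 epithelial, 4 endothelial, 9 immune and 2 smooth muscle and pericyte genes. In ICM 1 the endothelial list was led by TEK, EGFL7 and VWF, and the smooth muscle and pericyte list by MCAM, ACTG2 and NOTCH3. A count of 0 allows up to 0.0515 to 0.0761 CPM in these libraries (3 counts, counting error only). The epithelial list summed to 33.8 and 42.7 CPM in ICM 1 and siBANF1 1 and to 154 and 176 in pair 2, led by KRT18. The mural list (smooth muscle and pericyte genes) summed to 589 and 756 CPM in pair 1 and to 121 and 126 in pair 2. RGS5 alone made up 69.7 and 446 CPM of the sums in pair 1. Of the 7 mural genes tested, 2 were higher in siBANF1 1 than in ICM 1, and 4 in siBANF1 2 than in ICM 2. Endothelial markers summed to 259 and 139 CPM in pair 1 and 79.9 and 76.3 in pair 2, and immune markers to 96.0 and 93.5, and 59.2 and 57.1. The part of these differences in the results below was not tested. In bulk RNA, fewer cells of a type and less RNA per cell cannot be told apart.

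The 2 pairs differed from each other more than the siBANF1 library differed from its ICM partner. Over the tested genes, the SD of the log2 difference was 1.23 between ICM 2 and ICM 1 and 1.27 between siBANF1 2 and siBANF1 1. Within pairs it was 0.69 between siBANF1 1 and ICM 1 and 0.27 between siBANF1 2 and ICM 2. In pair 1, 1324 genes stood past 2-fold (573 higher, 751 lower in siBANF1 1), and in pair 2, 77 genes did (32 higher, 45 lower in siBANF1 2). Of those 77, 67 had the same direction in pair 1. Genes past 2-fold in the same direction in both pairs numbered 19 higher (0.167% of the genes tested) and 21 lower (0.185%), and 7 stood past 2-fold in opposite directions. Over all tested genes, 58.97% had the same sign in both pairs. At an unadjusted p under 0.05, the paired test of edgeR gave 1009 genes (8.88%), of which 476 were higher (4.19%) and 533 lower (4.69%).

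**Figure D2:**
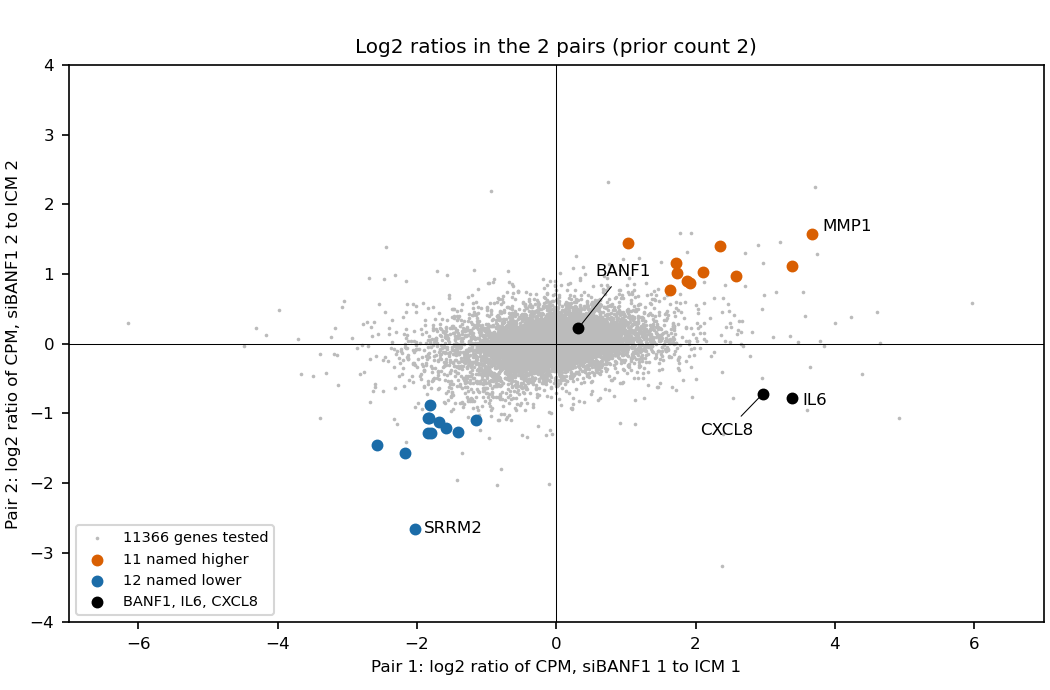
Log2 ratio of CPM, siBANF1 to ICM, in pair 1 (x axis) and pair 2 (y axis), one point per gene for the 11366 genes tested, with the 12 named lower genes in blue, the 11 named higher genes in orange and BANF1, IL6 and CXCL8 in black. The cloud is wider along pair 1 than along pair 2, SRRM2 is the named gene furthest down on the pair 2 axis, and IL6 and CXCL8 lie right of 0 in pair 1 and below 0 in pair 2.

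The 12 genes named on the lower side, in order of p, were SRRM2, SFXN1, DPY19L1, DICER1, RORA, FAM174A, CEMIP2, TAF13, MFAP3, MTPN, GLYR1 and BLOC1S6. Those after SRRM2 did not pass the paired test, with edgeR adjusted p from 0.153 to 0.226, and are given as values. Both siBANF1 libraries lay below both ICM libraries for 11 of the 12, all but TAF13, as they did for 8.54% of all genes tested. For 7 of the 12, both siBANF1 libraries lay below each of the other 12 libraries of the series, against 0.818% of all genes tested. Those other libraries include some of a different make-up, as given above. The naming rule used the p and the signs in these libraries, so both counts are descriptions. The difference was larger in pair 1 for 11 of the 12, SRRM2 being the exception, and for 76.0% of all genes tested.

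SFXN1, a mitochondrial serine transporter, had 108 CPM in ICM 1 and 31.2 in siBANF1 1, and 184 in ICM 2 and 73.0 in siBANF1 2. Both siBANF1 libraries were below all others, with a paired log2 fold change of -1.54 (SE 0.22). DPY19L1, a relative of the C-mannosyltransferases, had 65.3 CPM against 11.01 in pair 1 and 117 against 41.0 in pair 2. Its paired log2 fold change was -2.01 (SE 0.29), and the groups did not overlap. DICER1, the ribonuclease that cuts microRNA precursors, had 222 CPM in ICM 1 and 74.3 in siBANF1 1, and 109 in ICM 2 and 45.3 in siBANF1 2. ICM 1 stood highest of the 14 libraries for DICER1, and the paired log2 fold change was -1.40 (SE 0.21). RORA, a nuclear receptor of the circadian clock, had 67.0 CPM against 18.8 in pair 1 and 23.1 against 9.12 in pair 2. RORA lay at 6.23 to 16.1 CPM in the WT, siHMGB2, siCTCF and other ICM libraries, so siBANF1 2 was within that range and siBANF1 1 above it. The paired log2 fold change was -1.57 (SE 0.23).

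FAM174A, a small membrane protein, had 16 CPM in ICM 1 and 3.55 in siBANF1 1, and 18.7 in ICM 2 and 6.06 in siBANF1 2. No other library was under 15.1 CPM for FAM174A. CEMIP2, a cell-surface protein that takes part in hyaluronan breakdown, had 127 CPM against 39.7 in pair 1 and 102 against 45.0 in pair 2. The 2 siBANF1 libraries were the lowest of all for CEMIP2, with a paired log2 fold change of -1.40 (SE 0.22). MTPN, the ankyrin-repeat protein myotrophin, had 181 CPM against 51.3 in pair 1 and 243 against 112 in pair 2. Its groups did not overlap, with a paired log2 fold change of -1.45 (SE 0.24). GLYR1, a nucleosome-binding factor also known as NPAC, had 69.4 CPM against 31.4 in pair 1 and 104 against 47.1 in pair 2. GLYR1 had nearly the same difference in both pairs, with log2 ratios of -1.16 and -1.10. TAF13, a subunit of the general transcription factor TFIID, had 23.1 CPM against 8.70 in pair 1 and 70.9 against 28.3 in pair 2, so siBANF1 2 lay above ICM 1. MFAP3, a microfibril-associated protein, and BLOC1S6, a subunit of a complex that makes lysosome-related organelles, had paired log2 fold changes of -1.46 (SE 0.24) and -1.35 (SE 0.25).

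**Figure D3:**
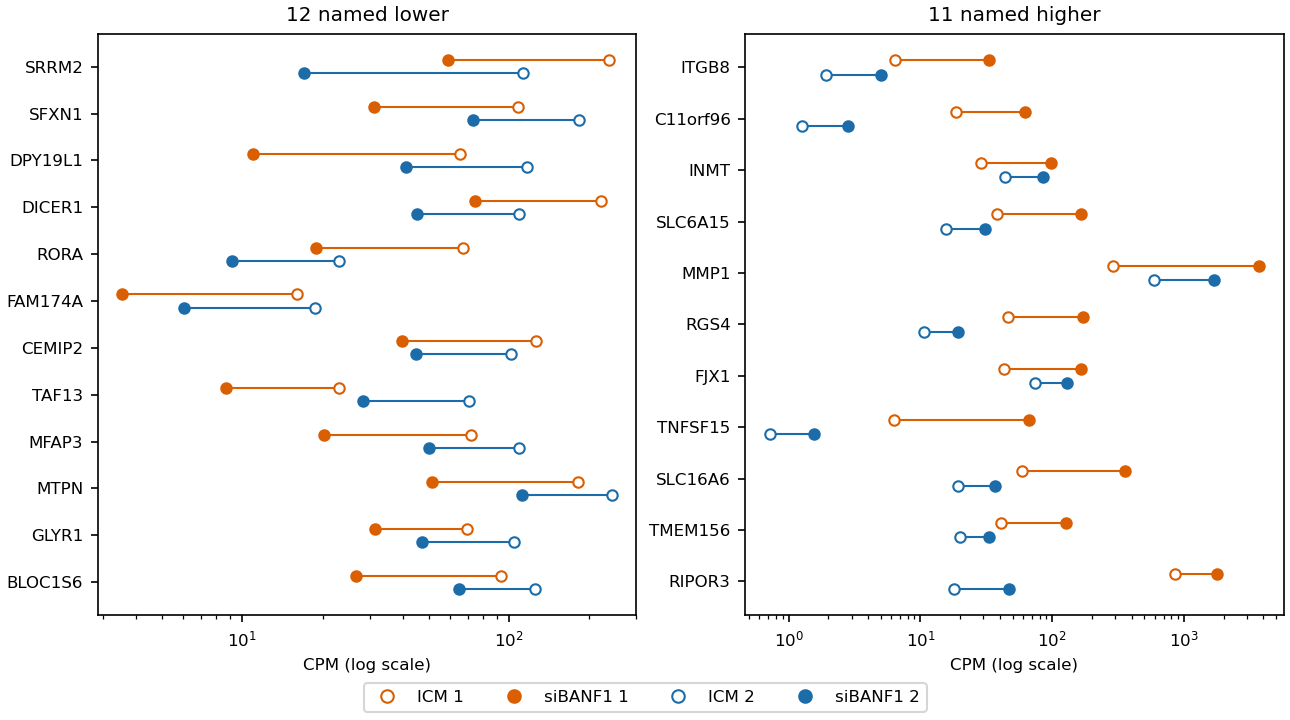
CPM (log axis) of the 12 named lower (left) and 11 named higher genes (right), with pair 1 in orange, pair 2 in blue, ICM as open and siBANF1 as filled points joined within a pair. Filled points lie left of open ones for every named lower gene and right of them for every named higher gene, which the rule fixed, and the orange lines are longer than the blue ones for 11 of 12 lower and 10 of 11 higher genes.

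Of the 21 genes past 2-fold lower in both pairs, 11 are among the 12 above, and the other 10 are AK4, KLHL15, MGAT3, PPFIA4, SYT1, TMEM26, TMEM62, ZFP69, ZNF253 and ZNF724. AK4, a mitochondrial adenylate kinase, had 80.5 CPM against 7.71 in pair 1 and 30.8 against 14.2 in pair 2. KLHL15, an adaptor of a cullin ubiquitin ligase, had 15.5 CPM against 6.44 in pair 1 and 47.3 against 21.9 in pair 2. ZFP69, ZNF253 and ZNF724 encode zinc finger proteins and stood under 8 CPM in all 4 libraries. SYT1, MGAT3 and TMEM26 were under 1 CPM in at least 1 library of each group.

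A second test estimated the spread from all 14 libraries, with a mean for each group and a pair term for these 4. The pair term takes out the replicate difference that ICM and siBANF1 share, so the spread came largely from groups outside this comparison. Some of those were close, such as the siSRRM2 libraries with 141.6 and 142.4 CPM of SFXN1. The log2 ratios of the 2 pairs compared here had SDs of 0.69 and 0.27, so the calls of this test depend on the spread of other groups. This 14-library test gave 37 genes called lower (0.326%) and 3 called higher (0.0264%). The rule was again an edgeR adjusted p under 0.05 with the same direction in both pairs. All 12 named lower genes were among the 37, with adjusted p from 0.00237 for SRRM2 to 0.0477 for CEMIP2. The 12 were chosen by p in the same 4 libraries, whose difference this test estimates again. Their presence among the 37 is therefore a description and no separate check. The 3 called higher were GNPNAT1, VPS33A and RGS4. GNPNAT1 is an enzyme on the path to the sugar nucleotide UDP-GlcNAc. VPS33A is a subunit of the tethering complexes of endosomes and lysosomes, and RGS4 a regulator of G-protein signalling. GNPNAT1 had 19.7 CPM against 43.6 in pair 1 and 57.2 against 87.8 in pair 2. VPS33A had 22.7 CPM against 51.5 in pair 1 and 49.6 against 77.1 in pair 2. For both genes each siBANF1 library was above its own partner, and siBANF1 1 was below ICM 2 for GNPNAT1.

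Further genes called lower in the 14-library test are given here, chosen after their values were seen. ARF4, a small GTPase of the Golgi, had 259 CPM against 114 in pair 1 and 559 against 285 in pair 2. TNFRSF10B, the death receptor DR5, had 404 CPM against 143 in pair 1 and 696 against 399 in pair 2. Its log2 fold change was -1.12 (SE 0.16) and its siBANF1 levels lay below both ICM levels. APAF1, the core of the apoptosome, had 66.6 CPM against 24.6 in pair 1 and 47.4 against 25.3 in pair 2. GTF2A2, a subunit of TFIIA, had a log2 fold change of -1.08 (SE 0.13) and HNRNPAB, an RNA-binding hnRNP protein, one of -0.95 (SE 0.15). The Wald test of DESeq2 with the pair as a block called 67 genes, 25 higher and 42 lower, and 26 of them were among the 40 of the 14-library test. Without the pair term, the 14-library test called 0 genes, with 512 at an unadjusted p under 0.05.

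The 11 genes named on the higher side, again in order of p, were ITGB8, C11orf96, INMT, SLC6A15, MMP1, RGS4, FJX1, TNFSF15, SLC16A6, TMEM156 and RIPOR3. Their edgeR adjusted p in the paired test ran from 0.153 to 0.266, so none was called. Both siBANF1 libraries lay above both ICM libraries for 3 of the 11, INMT, MMP1 and FJX1, and for 5.21% of all genes tested. In 10 of the 11, all but C11orf96, siBANF1 1 was the highest of the 14 libraries, against 9.84% of all genes tested. The rule chose these genes too, and the counts are descriptions. The difference was larger in pair 1 for 10 of the 11, RIPOR3 being the exception.

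MMP1, the interstitial collagenase (chr11:102789919-102798160), had 288 CPM in ICM 1 and 3716 in siBANF1 1, and 589 in ICM 2 and 1686 in siBANF1 2. Both siBANF1 libraries were above both ICM libraries, and the paired log2 fold change was 2.62 (SE 0.49), with an edgeR adjusted p of 0.226. INMT, an enzyme that methylates indoles, had 28.9 CPM against 97.1 in pair 1 and 43.4 against 84.6 in pair 2. The 2 siBANF1 libraries were the highest of all for INMT, with a paired log2 fold change of 1.37 (SE 0.24). FJX1, a secreted protein related to the Drosophila four-jointed kinase, had 42.9 CPM against 165 in pair 1 and 74.3 against 130 in pair 2. RIPOR3 had 857 CPM against 1770 in pair 1 and 18.1 against 47.3 in pair 2, so the pairs differed far more than the partners did.

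For 3 of the higher genes, both libraries of pair 2 were under 5 CPM. C11orf96 had 18.6 CPM in ICM 1 and 61.9 in siBANF1 1, but 1.27 in ICM 2 and 2.80 in siBANF1 2. TNFSF15, a cytokine of the TNF family, had 6.27 CPM against 66.4 in pair 1 and 0.719 against 1.55 in pair 2. ITGB8, the beta subunit of a TGF-beta-activating integrin, had 6.37 CPM against 33.0 in pair 1 and 1.92 against 4.98 in pair 2. For these 3 genes each siBANF1 library was above its partner, and siBANF1 2 was below ICM 1. RGS4 had 46.0 CPM against 170 in pair 1 and 10.7 against 19.3 in pair 2. SLC6A15, a transporter of neutral amino acids, and SLC16A6, a carrier of the monocarboxylate family, had paired log2 fold changes of 1.57 (SE 0.27) and 1.79 (SE 0.35). With siBANF1 1 left out, the fit had no pair term and set siBANF1 2 against both ICM 1 and ICM 2. It gave 0.044 for SLC6A15 and 0.11 for ITGB8, whose paired value with all 4 libraries was 1.92. The log2 ratios within pair 2, which does not hold siBANF1 1, were 1.03 for SLC6A15 and 1.41 for ITGB8.

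Of the 19 genes past 2-fold higher in both pairs, 7 are among the 11 named, and 11 others were under 20 CPM in all 4 libraries. These others are ACTBL2, ARHGAP25, BCL2A1, CACNA2D3, GJB2, IL15RA, LOC107986982, OR8D1, SHISA2, SIGLEC15 and TXLNB. IL15RA, a receptor subunit for interleukin 15, had 8.54 CPM against 19.7 in pair 1 and 3.13 against 7.16 in pair 2. BCL2A1, an antiapoptotic BCL2 relative, had 1.11 CPM against 15.4 in pair 1 and 0.442 against 1.10 in pair 2. IL15RA had nearly the same ratio in both pairs, while BCL2A1 differed much more in pair 1.

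The libraries labelled siSRRM2 gave a second reference that contains no ICM library, though the siBANF1 libraries that chose the named genes enter it as well. With all 14 libraries in edgeR and no pairing, siBANF1 against siSRRM2 gave 79 genes called higher (0.695%) and 94 called lower (0.827%). SRRM2 differed by -0.88 on the log2 scale (SE 0.57), with an adjusted p of 0.421. BANF1 differed by -0.32 (SE 0.36), with an adjusted p of 0.683, so neither difference passed this test. For 11 of the 12 named lower genes, both siSRRM2 libraries lay above both siBANF1 libraries, RORA being the exception at 12.2 and 12.4 CPM. The same held for 24.6% of all genes tested, and the 12 were chosen for low values in these siBANF1 libraries. FAM174A, for example, had 15.1 and 15.5 CPM in siSRRM2. FAM174A, GLYR1, BLOC1S6 and SFXN1 were called lower in siBANF1 than in siSRRM2, with edgeR adjusted p of 0.0185, 0.0277, 0.0480 and 0.0493. MMP1 had 1582 and 1599 CPM in siSRRM2, just under siBANF1 2, and was not called (adjusted p = 0.358).

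The 24 gene groups examined had 0 members called by edgeR's paired test. The 14-library test called 2 members lower, HNRNPAB and TNFRSF10B, and DESeq2 called 4 secretory factors higher and 2 p53 targets lower. Group values are therefore given as medians of the paired log2 fold change beside that of all genes tested, which was 0.01. For most groups, counts or shares at an unadjusted p under 0.05 are given too. Group members named below, beyond those the naming rule took, were chosen after their values were seen. Over all genes tested, 4.19% were higher and 4.69% lower at that p, and 32.2% had the higher sign in both pairs, 26.8% the lower sign in both and 41.0% opposite signs. In 20 of the 24 groups the median lay further from 0 in pair 1 than in pair 2.

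**Figure D4:**
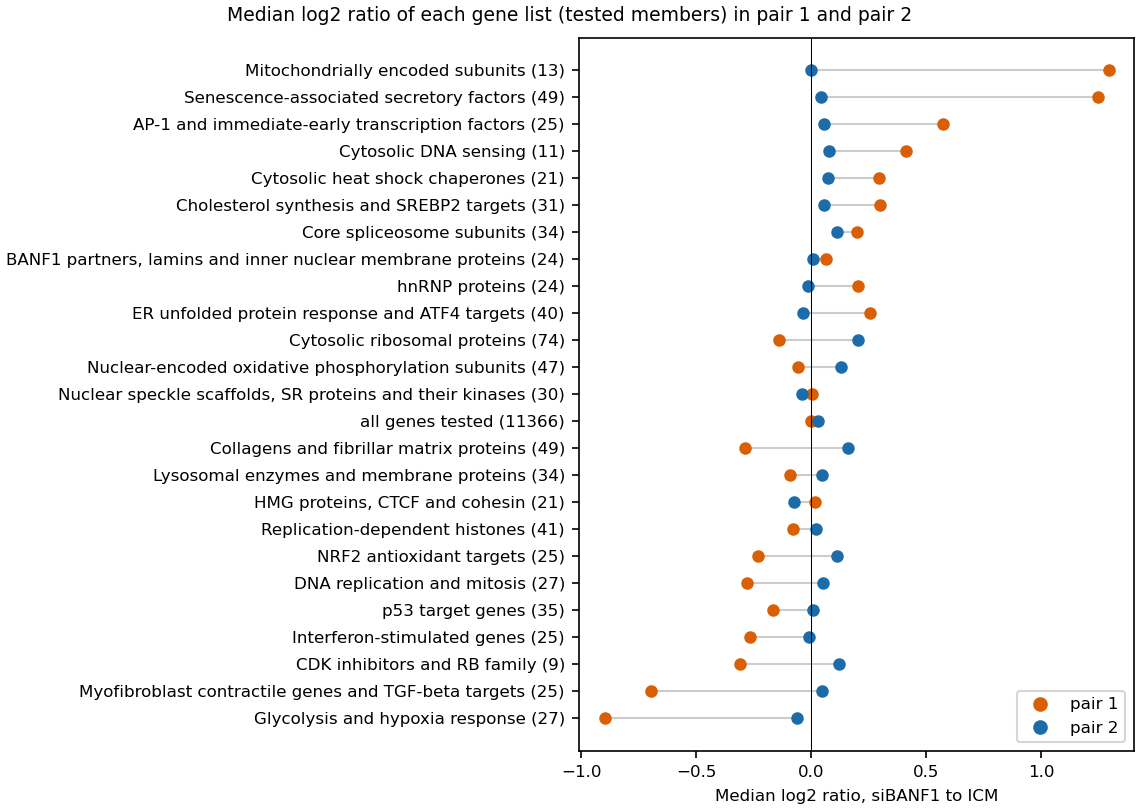
Median log2 ratio, siBANF1 to ICM, of the tested members (number in brackets) of each of the 24 gene groups and of all genes tested, in pair 1 (orange) and pair 2 (blue). The medians of secretory factors and mitochondrially encoded subunits exceed 1.2 in pair 1 and lie near 0 in pair 2, and those of glycolysis and contractile genes are below -0.6 in pair 1 and near 0 in pair 2.

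Senescence-associated secretory factors had a median log2 fold change of 0.53 over 49 genes. The median was 1.25 in pair 1 and 0.04 in pair 2, and 13 members (26.5%) were higher and 2 (4.08%) lower at an unadjusted p under 0.05, against 4.19% and 4.69% of all genes. Over both pairs, 19 members (38.8%) had the same higher sign, 5 (10.2%) the same lower sign and 25 (51.0%) opposite signs. The cytokine IL6 had 64.7 CPM in ICM 1 and 680 in siBANF1 1, but 30.8 in ICM 2 and 17.3 in siBANF1 2. The neutrophil chemokine CXCL8 had 776 CPM against 6127 in pair 1 and 404 against 237 in pair 2. For both genes the siBANF1 library was the higher one in pair 1 and the lower one in pair 2, with edgeR adjusted p of 0.684 and 0.702. The colony-stimulating factors CSF2 and CSF3 were past 2-fold in opposite directions in the 2 pairs, which IL6 and CXCL8 were not. CSF2 had 20.4 CPM against 108 in pair 1 and 0.811 against 0.292 in pair 2. By contrast, IL1B had 152 CPM against 1366 in pair 1 and 11.3 against 18.3 in pair 2, with the same sign in both. BMP2, a ligand of the TGF-beta superfamily, had 278 CPM against 1216 in pair 1 and 93.3 against 166 in pair 2. MMP3, stromelysin, had 241 CPM against 2489 in pair 1 and 1741 against 1817 in pair 2. MMP1, IL1B, BMP2 and MMP3 were the 4 that DESeq2 called higher. RGS5, a pericyte marker that DESeq2 also called higher, had 69.7 CPM against 446 in pair 1 and 7.39 against 8.94 in pair 2. The 7 mural markers tested, RGS5 among them, had a median log2 ratio of -0.84 in pair 1 and 0.05 in pair 2. The part of RGS5 in these values was not tested.

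Transcription factors of the AP-1 and immediate-early group had a median log2 fold change of 0.28 over 25 genes, 0.57 in pair 1 and 0.05 in pair 2. At an unadjusted p under 0.05, 6 (24%) were higher and 0 lower, against 4.19% and 4.69% of all genes. FOSB had 1.33 CPM against 7.76 in pair 1 and 1.46 against 1.73 in pair 2. FOSL1 had 29.3 CPM against 87.7 in pair 1 and 47.7 against 47.5 in pair 2, and MYC 17.5 against 36.6 and 65.5 against 72.9. The 3 genes shared a clear difference in pair 1 and a small one, or none, in pair 2.

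Genes of glycolysis and the hypoxia response had the lowest group median, -0.47 over 27 genes. The median was -0.90 in pair 1 and -0.06 in pair 2, with 9 members (33.3%) lower and 0 higher at an unadjusted p under 0.05, against 4.69% and 4.19% of all genes. Of the 27, 14 (51.9%) had the lower sign in both pairs and 2 (7.41%) the higher sign. BNIP3L, a receptor for removing mitochondria, had 355 CPM against 174 in pair 1 and 216 against 134 in pair 2. PDK1, the kinase that restrains pyruvate dehydrogenase, had 106 CPM against 32.6 in pair 1 and 28.9 against 21.3 in pair 2. SLC2A1, the glucose carrier GLUT1, had 586 CPM against 134 in pair 1 and 245 against 226 in pair 2. All 3 were lower in each siBANF1 library than in its partner, and none passed the adjusted threshold. SLC2A3, the glucose carrier GLUT3, is not in this list and was picked after its value was seen. It was among the 37 called lower in the 14-library test, with 297 CPM against 102 in pair 1 and 290 against 174 in pair 2.

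Myofibroblast contractile genes and TGF-beta targets had a median of -0.29 over 25 genes, -0.69 in pair 1 and 0.05 in pair 2. At an unadjusted p under 0.05, 4 (16%) were lower and 1 (4%) higher, against 4.69% and 4.19% of all genes. Of the 25, 7 (28%) had the lower sign in both pairs, 3 (12%) the higher sign and 15 (60%) opposite signs, against 41.0% opposite over all genes. TAGLN had 651 CPM against 72.3 in pair 1 and 75.7 against 85.2 in pair 2. ACTA2, smooth muscle actin, had 319 CPM against 62.5 in pair 1 and 56.8 against 55.9 in pair 2. For both genes ICM 1 stood far above the other 3 libraries, which lay close together. CCN2, a matricellular protein, was lower in both pairs, with 1043 CPM against 451 and 470 against 287. ID1, a target of BMP signalling, was higher in both, with 16.7 CPM against 38.1 and 124 against 168. Collagens and fibrillar matrix proteins had a median of 0.00 over 49 genes, with -0.29 in pair 1 and 0.16 in pair 2. At an unadjusted p under 0.05, 6 (12.2%) were lower and 3 (6.12%) higher, against 4.69% and 4.19% of all genes. MFAP2, the member with the smallest p, had 5.84 CPM against 0.431 in pair 1 and 0.184 against 0.1202 in pair 2.

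The 13 mitochondrially encoded subunits had a median log2 fold change of 0.67, with 1.29 in pair 1, where all 13 were higher in siBANF1 1, and 0.00 in pair 2, where 7 were. ND4L had 39.6 CPM against 98.0 in pair 1 and 4.04 against 4.48 in pair 2. Nuclear-encoded subunits of the respiratory chain had a median of 0.03 over 47 genes, -0.06 in pair 1 and 0.13 in pair 2. Their member with the smallest p, ATP5F1D, had 17.8 CPM against 29.1 in pair 1 and 13.2 against 15.98 in pair 2. Cytosolic ribosomal proteins had a median of 0.04 over 74 genes, with 16 (21.6%) higher in pair 1 and 73 (98.6%) higher in pair 2. Over all genes tested, 49.8% were higher in pair 1 and 55.6% in pair 2. RPS16 had 74.9 CPM against 115 in pair 1 and 171 against 210 in pair 2.

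Nuclear speckle scaffolds, SR proteins and their kinases, the group that works with SRRM2, had a median log2 fold change of 0.01 over 30 genes. No member had an unadjusted p under 0.05, and 5 had the same higher sign, 10 the same lower sign and 15 opposite signs. SON, the other speckle scaffold, had 288 CPM in ICM 1 and 487 in siBANF1 1, and 323 in ICM 2 and 268 in siBANF1 2. SON was higher in pair 1 and lower in pair 2, with a log2 fold change of 0.26 (SE 0.28) and an edgeR adjusted p of 0.813. SRPK1, a kinase of SR proteins, had 77.3 CPM against 143 in pair 1 and 158 against 150 in pair 2. Core spliceosome subunits had a median of 0.15 over 34 genes, with 2 higher and 1 lower at an unadjusted p under 0.05. That is 8.82% of them, near the 8.88% of all genes. The lower one, SF3B6, had 49.0 CPM against 21.6 in pair 1 and 93.0 against 63.4 in pair 2. Proteins of the hnRNP family had a median of 0.10 over 24 genes, with 2 (8.33%) lower at that p, also near the 8.88% of all genes at that p in either direction. HNRNPAB had 45.0 CPM against 25.6 in pair 1 and 97.0 against 43.8 in pair 2, and both siBANF1 libraries were below both ICM libraries.

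Partners of BANF1, lamins and inner nuclear membrane proteins had a median log2 fold change of 0.10 over 24 genes, with 1 higher and 2 lower at an unadjusted p under 0.05. These 3 are 12.5% of the group, near the 8.88% of all genes, and are given as single genes. VPS4A, the ATPase that takes apart the ESCRT-III filaments that seal the nuclear membrane, had 37.5 CPM against 97.6 in pair 1 and 149 against 158 in pair 2. The lower 2 were LBR, the lamin B receptor, at 28.4 CPM against 18.1 and 38.3 against 29.04, and SYNE2, a nesprin, at 18.7 against 8.65 and 3.94 against 2.94. LMNA, the lamin A gene, had 332 CPM against 381 in pair 1 and 319 against 358 in pair 2. LMNB1, whose loss is a mark of senescence, had 1.54 CPM against 1.70 in pair 1 and 2.52 against 2.90 in pair 2.

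Cytosolic DNA sensors had a median of 0.22 over 11 genes, with 1 (9.09%) higher at an unadjusted p under 0.05, near the 8.88% of all genes in either direction. That gene was SLC19A1, a folate and cyclic dinucleotide carrier, at 8.81 CPM against 18.7 in pair 1 and 12.3 against 17.7 in pair 2. CGAS had 3.67 CPM against 4.08 in pair 1 and 8.20 against 6.51 in pair 2, so its sign differed between the pairs. Interferon-stimulated genes had a median of -0.16 over 25 genes, with 1 higher and 2 lower at that p, 12% of them against 8.88% of all genes. CXCL10 had 6.89 CPM against 28.7 in pair 1 and 0.479 against 0.549 in pair 2. IFIT2 and GBP1 were the 2 lower, IFIT2 at 1.72 CPM against 0.279 and 1.97 against 1.17.

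Targets of p53 had a median of -0.12 over 35 genes, with 4 (11.4%) higher and 5 (14.3%) lower at an unadjusted p under 0.05, against 4.19% and 4.69% of all genes. CDKN1A, the CDK inhibitor p21, had 1529 CPM in ICM 1 and 1520 in siBANF1 1, and 6974 in ICM 2 and 7743 in siBANF1 2. Partners were close, and both libraries of pair 2 stood well above those of pair 1. BTG2, an antiproliferative p53 target that DESeq2 called lower with TNFRSF10B, had 41.2 CPM against 12.7 in pair 1 and 126 against 77.2 in pair 2. CDK inhibitors and the RB family had a median of -0.27 over 9 genes. CDKN2A, the p16 gene, had 18.2 CPM against 9.31 in pair 1 and 18.9 against 20.3 in pair 2, and RB1 had 66.0 against 49.1 and 119 against 83.7. Genes of DNA replication and mitosis had a median of -0.09 over 27 genes, with 1 lower at that p, CCNE1 (cyclin E1), at 5.66 CPM against 1.65 and 9.10 against 6.15. MKI67, a proliferation marker, was under the minimum level and not tested, at 1.09 CPM against 1.01 and 0.258 against 0.275. GLB1, the gene of senescence-associated beta-galactosidase, had 217 CPM against 121 in pair 1 and 89.4 against 78.0 in pair 2.

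The HMG proteins, CTCF and cohesin had a median of -0.04 over 21 genes, with 2 (9.52%) higher and 1 (4.76%) lower at an unadjusted p under 0.05. HMGB2, a target of inflachromene, had 8.14 CPM against 2.18 in pair 1 and 9.60 against 7.14 in pair 2, with a log2 fold change of -1.11 (SE 0.40) and an edgeR adjusted p of 0.537. HMGB1 had 103 CPM against 94.2 in pair 1 and 158 against 159 in pair 2, and CTCF had 30.6 against 37.6 and 80.0 against 76.8. The remaining groups were cholesterol synthesis (median 0.17, 31 genes), the unfolded protein response (0.09, 40), cytosolic heat shock chaperones (0.22, 21), NRF2 targets (-0.09, 25), lysosomal proteins (-0.03, 34) and replication-dependent histones (-0.07, 41). At an unadjusted p under 0.05, 9.68% of the cholesterol group were higher and 3.23% lower. In the unfolded protein response, 12.5% were higher and 5% lower. Heat shock chaperones had 0% and 4.76%, NRF2 targets 0% and 0%, lysosomal proteins 2.94% and 2.94% and histones 0% and 2.44%. All genes tested had 4.19% and 4.69%. The members of these groups with the smallest p were MSMO1, VLDLR, DNAJB4, GCLM, CTSS and H4C8. The sterol oxidase MSMO1 had 16.1 CPM against 8.95 in pair 1 and 46.7 against 29.4 in pair 2. CTSS, the protease cathepsin S, had 8.22 CPM against 46.8 in pair 1 and 1.29 against 1.27 in pair 2. MSMO1 was lower in both siBANF1 libraries than in their partners, whereas CTSS was higher in siBANF1 1 and nearly level in pair 2.

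Transcript length was read from the longest protein-coding transcript of each gene in GENCODE v29. The 21 genes past 2-fold lower in both pairs had a median 3′ UTR of 2349 bases and a median coding length of 1578 bases. The 19 past 2-fold higher, 18 of them matched, had 1429 and 1112 bases. All tested genes, of which 97.6% were matched, had 1412 and 1404 bases. The 3′ UTRs of the 21 lower genes ranged from 287 to 9174 bases, so the groups overlapped, and no test was made on these lengths. Of the 23 genes named on the higher or lower side, 10 share exonic bases with a gene on the other strand, whose reads cannot be told apart without the strand setting. MMP1 is one of them, with WTAPP1.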

How the data were processed

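Counts per gene symbol were used as deposited by the authors, with 1 file per library and no pooling. Per the submitters' processing notes, the tools were STAR 2.7.3a, HTSeq 0.12.4 and DESeq2 1.36.0 and the build hg38. The annotation release and strand setting are not given in the sources used here. The 5 lines of reads given to no gene were left out. Of 54628 symbols, 52024 had an entry in the RefSeq gene table of GRCh38.p14 (408 by synonym), 19509 were protein-coding, and 11366 of these averaged 1 CPM or more in the 4 libraries and were tested.

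After TMM scaling, counts were tested with glmQLFit and glmQLFTest of edgeR 4.0.16 (R 4.3.3), with the pair as a block, which left 1 residual degree of freedom among 4 libraries and a median prior of 8.32. Benjamini-Hochberg adjustment ran over all 11366 genes. Ratios within a pair are log2 of TMM-scaled CPM with a prior count of 2. DESeq2 1.42.0, 14-library fits, other scalings, filters and gene classes, and leaving out each library or pair were the alternatives. The fits that left out a library or a pair used the rest of the 14 libraries and had no pair term. On simulated counts for this comparison, with 11366 genes, the paired test recovered 0% of 1.5-fold, 19.4% of 2-fold and 86.4% of 4-fold changes, with 2.78% false calls. The simulation gave both pairs the same fold change and the same spread. The log2 ratios of the real pairs had unlike SDs, 0.69 and 0.27, so these rates need not hold for the real data. Tables and figures were made in Python 3.11.15.

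Named were SRRM2 and BANF1, a panel of 13 genes, the 12 genes on each side averaging 10 CPM or more (called genes first, then by p with the same sign in both pairs) and the member of each gene list with the smallest p. Among them, 1 gene on the higher side is not reported here. These members, the 24 gene lists and 5 marker lists were chosen with earlier results of these data known.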

Additional observations from a re-analysis of the deposited data

Results flagged for a closer look

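In the 4 libraries labelled ICM, 35 genes of the report were examined for a library far from the others, by the gap to its nearest neighbour as a share of the range, against a limit of 0.829 for 4 libraries. Values in ICM 1 and 2 entered the choice of some of these genes, and ICM 3 and 4 differ from ICM 1 and 2 in the form of their titles. No chance rate is therefore given. Of the 35 genes, 5 exceeded the limit. ICM 1 was the far library for 4 of them, RIPOR3 (0.979), C11orf96 (0.934), RGS4 (0.892) and TNFSF15 (0.885), each higher there than in ICM 2, 3 and 4. These 4 are among the genes named on the higher side, and ICM 1 is their partner in pair 1. For HMGB1, ICM 2 was the far library (0.887), at 158 CPM against 97.6 to 105 in the other 3.

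Outside the protein-coding genes, the transcribed pseudogene CES1P1 had 5.02 CPM in siBANF1 1, 0.0205 in ICM 1, 0.0172 in siBANF1 2 and 0 counts in the other 11 libraries. Its paired log2 fold change of 7.57 (SE 0.83; edgeR adjusted p = 0.045 with all gene classes tested) rests on siBANF1 1 alone and depends on how values near 0 are treated. CES1P1 is a pseudogene of CES1, and the counting could divide reads between the 2.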

How the results depend on the processing

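The rule pairs the libraries by number, while the labels do not say what same-numbered libraries share. Deviations from the group means correlated at 0.86 across genes between same-numbered libraries, as a description of 2 pairs. Without the replicate block, 0 genes were called in either direction in the 4 libraries (19 at an unadjusted p under 0.05) and 0 in the 14-library fit, with log2 fold changes for SRRM2 of -2.18 and -2.16 and adjusted p of 1 and 1.00. The count of genes called higher was 3 with all 14 libraries and the pair block, 6 with no minimum CPM, 1 with all gene classes and 25 with DESeq2 and the pair block. The count called lower was 37, 10, 1 and 42 in those settings, and 0 with relative log expression scaling, total-count scaling, a minimum of 10 CPM or an adjusted p under 0.01. SRRM2 lost its call at -2.32, -2.37 and -2.36 in the first 3 of these. The cause was not tested.

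When a library or a pair was left out, edgeR called 0 to 722 genes higher and 0 to 463 lower. Both upper counts came from pair 1 alone, and without siBANF1 2 they were 176 and 82. Log2 fold changes ranged from -3.50 to -1.34 for SRRM2 and from -0.24 to 0.86 for BANF1. Against siSRRM2, they ranged from -2.23 to -0.19 for SRRM2 and from -0.82 to 0.054 for BANF1. With the replicate block in that comparison they were -1.21 and -0.38. Genes past a fold in both pairs, 40 at 2-fold, numbered 240 at 1.5-fold, 2 at 4-fold and 22 with a minimum of 10 CPM.

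Besides SRRM2 and BANF1, the 59 named genes tested kept their direction in all 9 settings with the 4 libraries, and 26 kept it when a library or pair was left out. Among these 26 the size still moved, down to 0.044 for SLC6A15, 0.11 for ITGB8, 0.050 for RPS16, -0.052 for BTG2, -0.47 for TAF13 and -0.52 for RORA. The other 33, and BANF1, changed sign in at least 1 of those settings, in which leaving out a single library sets libraries of different pairs against each other. The lowest and highest log2 fold changes were, for SON from -0.28 to 0.83, CTCF from -0.36 to 0.77, HMGB1 from -0.29 to 0.21, LMNB1 from -0.077 to 0.47, CDKN1A from -1.25 to 1.43, CDKN2A from -0.93 to 0.15, IL6 from -1.60 to 3.94, CXCL8 from -1.45 to 3.49, GLB1 from -1.18 to 0.34, C11orf96 from -2.03 to 4.93 and RGS4 from -0.73 to 3.41. They were, for TNFSF15 from -1.36 to 5.83, SLC16A6 from -0.26 to 3.61, TMEM156 from -0.020 to 2.24, RIPOR3 from -3.42 to 5.93, SRPK1 from -0.044 to 0.91, VPS4A from -0.089 to 1.65, CXCL10 from -2.93 to 5.19, MFAP2 from -4.81 to 0.69, ID1 from -0.63 to 2.46, MSMO1 from -1.59 to 0.10, VLDLR from -2.38 to 0.26 and DNAJB4 from -2.18 to 0.76. For the others they were, for GCLM from -0.96 to 0.0021, CTSS from -2.08 to 4.49, ATP5F1D from -0.068 to 1.04, ND4L from -2.48 to 3.93, H4C8 from -2.54 to 1.36, LUM from -1.37 to 2.39, KRT18 from -1.29 to 2.27, KDR from -0.93 to 3.47, CD14 from -3.87 to 2.00 and RGS5 from -2.30 to 5.22.

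Counts were simulated with 2 libraries in each group, the same fold change in both pairs and 1 residual degree of freedom. On these counts, changes of 2-fold or less were mostly not detected by the paired test.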
